A study of Mus musculus with 8 samples.

Results

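Complex I, the NADH:ubiquinone oxidoreductase of the respiratory chain, was followed here through all genes of the deposited matrix whose symbol starts with Nduf. The rule gave 47 of the 20170 genes measured. Of these, 37 were counted as structural subunits, 8 encode the assembly factors named Ndufaf, and 2 carry the prefix only. The structural subunits were divided into 7 core subunits, 9 accessory subunits of the matrix arm, and 21 accessory subunits of the membrane arm. Ndufb1-ps, which RefSeq names Ndufb1, was counted with the membrane arm. The GENCODE annotation lists it as a long noncoding RNA of a bidirectional promoter, not as protein coding. Ndufa4 is now counted as a subunit of complex IV, and Ndufa4l2 is its paralog, so both were kept apart.

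Complex I takes electrons from NADH in its matrix arm, passes them along iron-sulfur clusters to ubiquinone, and pumps protons across the inner membrane through its membrane arm. The pumping core is encoded by the mt-Nd genes of mitochondrial DNA, whereas every other subunit is encoded in the nucleus, made in the cytosol, and imported. Complex II, which contains SDHA, feeds electrons from succinate into the same ubiquinone pool. Activated T cells expand their mitochondria and raise respiration as they leave quiescence.

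The cells were splenic T cells of WT and SDHA-KO mice, enriched by magnetic separation and cultured alone (unstimulated) or, for 48 h, with soluble anti-CD3 at 5 µg/mL and anti-CD28 at 2.5 µg/mL (stimulated). The mice were young adults per the study's methods. SDHA-KO mice were Sdha fl/fl with CD4-Cre, a driver that acts in developing thymocytes, so it recombines in both CD4 and CD8 lineages but not in cells that never expressed Cd4. Whether the WT mice of these libraries carried floxed alleles was not given in the sources used here. The 4 groups had 2 libraries each, 8 in all, made with the 10x Genomics 3′ chemistry, and nothing in the labels says whether 2 libraries of a group came from separate mice, so p values measure the spread between libraries, which may be technical.

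The libraries held 10947009 to 51398728 UMIs, which are counts of captured transcripts, from 12846 cells, and 23 of the 12823 distinct cell barcodes occurred in more than 1 library. Values were summed per library within the CD4 and CD8 classes that the authors annotated, and levels are given as CPM, counts scaled to library total and composition. Sdha transcripts were lower in the SDHA-KO libraries of both classes and states. Stimulated CD4 cells of WT gave 74.0 and 73.1 CPM of Sdha, against 26.5 and 26.4 CPM for SDHA-KO, a log2 fold change of −1.47 (SE 0.07). Stimulated CD8 cells of WT gave 76.2 and 74.9 CPM, against 53.3 and 50.4 CPM for SDHA-KO (−0.54, SE 0.07). These CD8 values are of the annotated class, where 59.1% and 56.1% of stimulated SDHA-KO cells held a UMI of Trdc, a γδ T cell gene. Counts at the 3′ end do not separate intact from recombined transcripts.

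Stimulated WT and SDHA-KO cells also differed in ways that touch every value that follows. The median share of UMIs on mitochondrially encoded genes, called percent.mt, was 15.9 and 14.9 in stimulated WT CD4 cells and 1.79 and 1.77 in stimulated SDHA-KO CD4 cells, and in CD8 cells it was 19.0 and 16.9 in WT and 3.22 and 3.43 in SDHA-KO. Results are therefore also given for cells with percent.mt under 10, which leaves 336 of 859 and 396 of 967 WT CD4 cells and 988 of 1137 and 1156 of 1284 SDHA-KO CD4 cells. These cells did not hold equal numbers of UMIs. Among them the median WT CD4 cell held 59713.5 and 59710.5 UMIs in the 2 libraries, against 26637.5 and 26960.5 in SDHA-KO. The CD8 class of stimulated SDHA-KO was mixed, with Trdc, which encodes the δ chain constant region of γδ T cells, detected in 59.1% and 56.1% of its cells, against 3.67% and 4.92% in WT. The summed level of all 4 γδ markers looked at was 253 to 259 CPM in that class and 17.6 to 20.6 CPM in WT, while the CD8 markers stood at 211 to 273 CPM against 464 to 499 CPM. Cells with Trdc were also more frequent in SDHA-KO in unstimulated CD8 cells, at 19.7% and 15.2% against 3.90% and 3.41%. In CD4 cells they were 10.1% and 8.64% against 1.98% and 3.21% when stimulated. Unstimulated CD4 cells gave 7.08% and 7.60% against 3.64% and 2.84%. A strict class, with a UMI of Cd4 or Cd8 of its own and none of the other or of Trdc, was run beside the annotated one and held 169 and 147 SDHA-KO CD8 cells. The part of percent.mt, UMIs per cell, and γδ cells in the differences was not tested.

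Most subunit transcripts were higher in stimulated SDHA-KO cells than in stimulated WT cells, and 1 was far lower. In CD4 cells 26 of the 37 structural subunits rose and 1 fell by edgeR's quasi-likelihood test (adjusted p under 0.05), against a background of 43.2% of the 14264 genes tested, 22.7% higher and 20.5% lower. The median log2 fold change was 0.33 over the structural subunits and −0.00 over all genes tested. In CD8 cells 23 rose and 1 fell, with a median of 0.36 (background 50.4% of 13095 genes, 26.8% higher and 23.5% lower, median −0.01). The 2 classes shared 22 of the subunits that rose and the 1 that fell. Of the 8 Ndufaf assembly factors, 6 rose in CD4 cells (median of all 8, 0.51) and 7 in CD8 cells (median 0.49), with no call in the other direction. Of those 6 and 7, 2 and 4 were still called at percent.mt under 10 (background 16% higher in CD4 and 18.4% in CD8 cells).

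**Figure D1:**
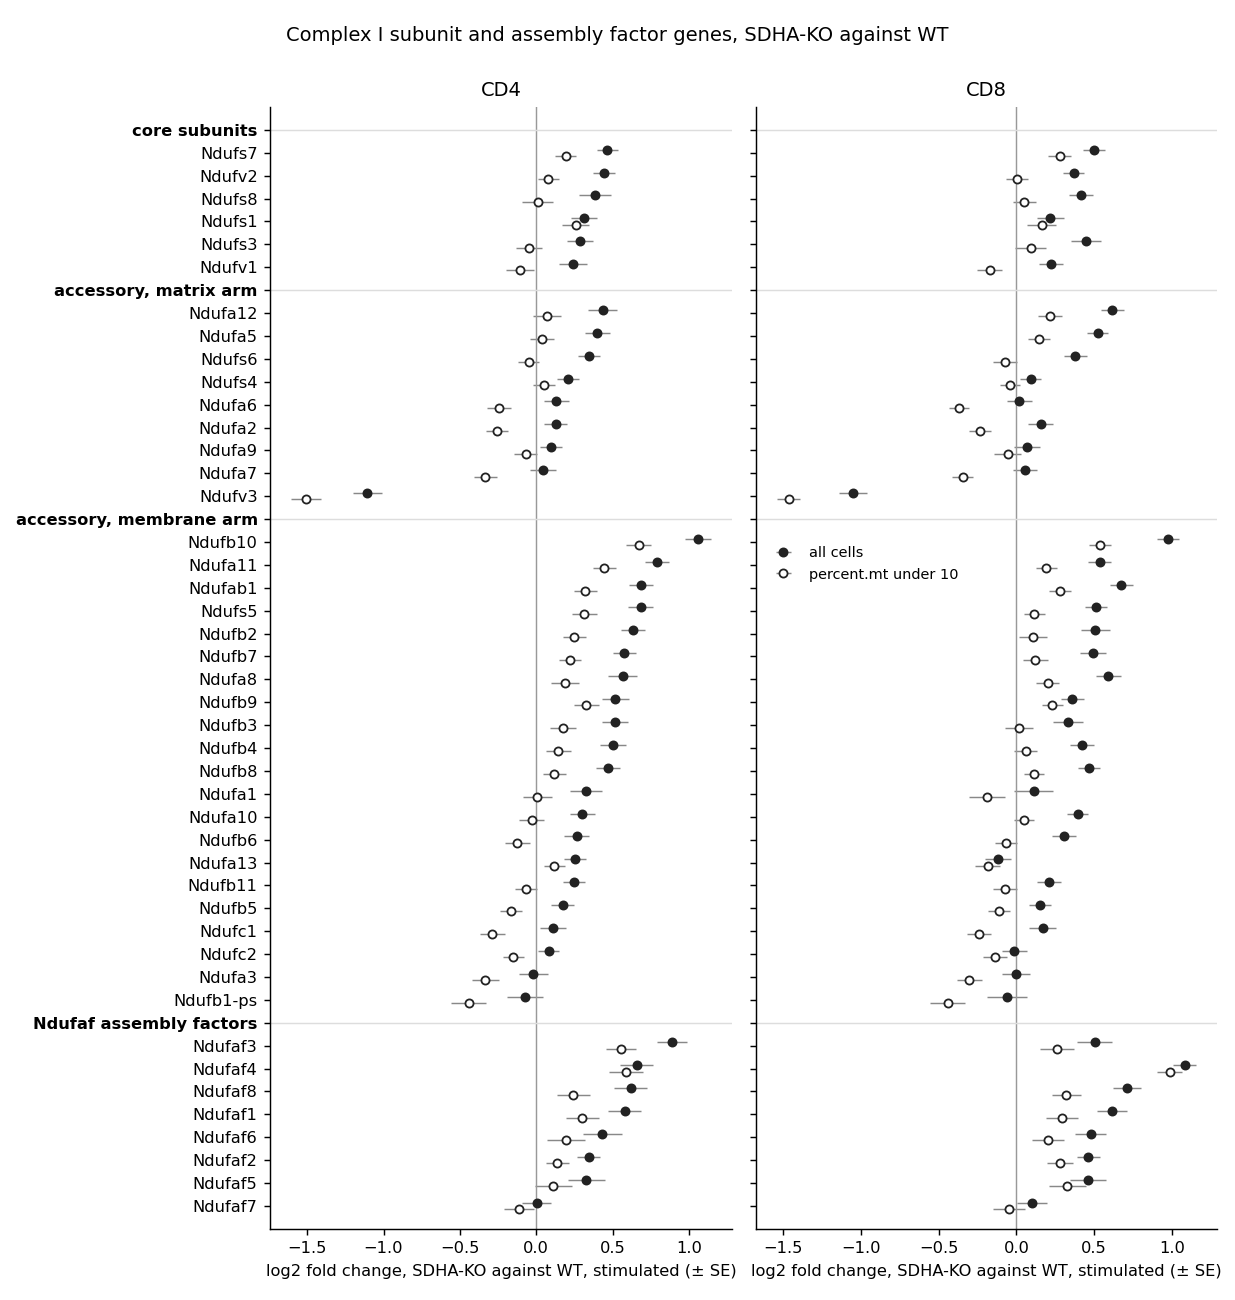
Log2 fold change of SDHA-KO over WT (x axis) for nuclear complex I genes (y axis), in stimulated CD4 cells (left panel) and CD8 cells (right panel), with points for all cells and for cells with percent.mt under 10 and bars for the SE of the fit. Ndufv3 lies at −1.11 and −1.05 and Ndufb10 at 1.06 and 0.97 in all cells, and points of cells with percent.mt under 10 lie to the left of those of all cells.

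The upstream sequences of 3 members are shown first because the comparison turns on them: Ndufv3, the subunit that fell, Ndufb10, the subunit that rose most, and Ndufaf4, the assembly factor that rose most in CD8 cells. They are taken from RefSeq on GRCm38.p6 (mm10), run 5′ to 3′ on the gene's strand up to the start of transcription, and stop where an annotated exon begins. Capitals mark a match to the NRF1 motif. NRF1 is a transcription factor known for its sites in respiratory chain promoters.
Ndufaf4, plus strand, chr4:24897833-24898082: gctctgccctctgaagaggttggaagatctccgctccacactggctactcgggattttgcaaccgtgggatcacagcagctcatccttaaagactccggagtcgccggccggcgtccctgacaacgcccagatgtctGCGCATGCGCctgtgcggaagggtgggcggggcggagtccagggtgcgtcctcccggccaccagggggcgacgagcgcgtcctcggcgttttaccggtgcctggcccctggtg
Ndufb10, minus strand, chr17:24724479-24724673: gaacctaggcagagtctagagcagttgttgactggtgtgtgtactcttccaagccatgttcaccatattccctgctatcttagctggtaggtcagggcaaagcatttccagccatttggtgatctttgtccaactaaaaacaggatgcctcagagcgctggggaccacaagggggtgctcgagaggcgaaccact
Ndufv3, plus strand, chr17:31519981-31520114: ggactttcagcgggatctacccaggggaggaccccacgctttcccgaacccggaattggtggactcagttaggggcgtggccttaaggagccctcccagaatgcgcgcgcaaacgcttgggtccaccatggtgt
The Ndufaf4 stretch holds 1 NRF1 match, which begins 113 bases before the start, and no match to any of the 5 motifs searched lies in the other 2. The Ndufv3 stretch is short, at 134 bases, because an exon of the neighbouring gene Wdr4 lies beyond it. The Ndufb10 stretch of 195 bases ends 55 bases before the RefSeq start, at an exon of Ndufb10.

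Promoters were given for 41 of the 47 members, 33 structural subunits and 7 assembly factors among them, and the 250 bases before the start were searched on both strands. NRF1, spelled GCGCA, 1 base of any kind, then GCGC, matched in 6 structural subunits (18.2%) and 1 assembly factor (14.3%), against 4.23% of all 27018 promoters. The subunits were Ndufa5, Ndufs6, Ndufa11, Ndufa8, Ndufb4, and Ndufs5. The ETS motif CCGGAAG matched in 3 subunits (9.09%) and 2 assembly factors (28.6%), against 7.83% of all. The ERR motif AAGGTCA matched in 3 subunits (9.09%, against 4.7%), the E-box CACGTG in 2 (6.06%, against 6.86%), and the YY1 motif AAGATGGCG in none (against 0.707%). Neither the E-box, the YY1, nor the ERR motif matched in an assembly factor. The E-box reads the same on both strands, so it was counted once. A match is a description of letters, not of binding.

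Ndufv3, on chromosome 17 at 31520115 to 31531331, encodes the small accessory subunit beside the NADH-binding core and has a long and a short form that counts at the 3′ end do not separate. In stimulated CD4 cells it measured 264 and 303 CPM in WT and 143 and 120.1 CPM in SDHA-KO, a log2 fold change of −1.11 (SE 0.10, edgeR adjusted p = 9.36e-06). In stimulated CD8 cells it measured 179.7 and 215 CPM in WT and 99.2 and 91.8 CPM in SDHA-KO (−1.05, SE 0.09, edgeR adjusted p = 6.2e-06). Both SDHA-KO libraries lay below both WT libraries in each class, as they did for 36.9% of all genes tested in CD4 and 38.5% in CD8 cells. In cells with percent.mt under 10 the gap was wider, with 354 and 398 against 145 and 119.5 CPM in CD4 cells (−1.51, SE 0.10) and 274 and 299 against 108 and 99.6 CPM in CD8 cells (−1.46, SE 0.08). The strict class gave −1.05 in CD4 and −0.97 in CD8 cells, and with both restrictions −1.49 and −1.45. Ndufv3 kept its direction and its call in each of these.

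As a share of all structural subunit UMIs, a measure on which library scaling has no effect, Ndufv3 made up 4.30% and 4.63% in stimulated WT CD4 cells and 1.88% and 1.46% in SDHA-KO, and 3.30% and 3.68% against 1.49% and 1.29% in CD8 cells. Unstimulated libraries of both genotypes lay between these values, at 2.79% to 3.36%. In cells with percent.mt of 10 or more, Ndufv3 gave 124 and 143 CPM of nuclear UMIs in WT CD4 cells and 46.1 and 39.0 in SDHA-KO, so the cells left out by the limit showed the lower level too. A UMI of Ndufv3 was found in 94.6% and 97.0% of WT CD4 cells with percent.mt under 10 and in 89.4% and 88.4% of those of SDHA-KO, which were shallower. In all stimulated CD4 cells the order turned, at 75.2% and 79.6% in WT and 81.1% and 81.6% in SDHA-KO. All stimulated CD8 cells gave 71.9% and 79.5% in WT and 69.1% and 68.4% in SDHA-KO.

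Ndufb10, an accessory subunit of the membrane arm on chromosome 17 at 24722060 to 24724478, moved furthest in the other direction. It measured 126 and 131 CPM in stimulated WT CD4 cells and 250.3 and 285 CPM in SDHA-KO (log2 fold change of 1.06, SE 0.09, edgeR adjusted p = 5.56e-06), and 118 and 121 against 228 and 242 CPM in CD8 cells (0.97, SE 0.07, edgeR adjusted p = 2.37e-06). All 4 SDHA-KO values lay above all 4 WT values. Of all genes tested, 37.8% in CD4 and 38.8% in CD8 cells had both SDHA-KO libraries above both WT libraries. With percent.mt under 10 the rise was smaller but called, at 165 and 172 against 254 and 284 CPM in CD4 cells (0.67, SE 0.08) and 181 and 170.2 against 247 and 262 CPM in CD8 cells (0.54, SE 0.07). Unstimulated CD4 cells gave 153 and 137 CPM for WT and 147 and 136 CPM for SDHA-KO, and the genotypes overlapped.

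The core subunits carry the flavin, the iron-sulfur clusters, and the quinone site that are conserved from bacteria. In stimulated CD4 cells 6 of 7 rose (background 22.7% higher), with a median log2 fold change of 0.38, and in CD8 cells 6 of 7 (26.8%), with a median of 0.42. Under the percent.mt limit 2 of 7 rose in each class (background 16% higher in CD4 and 18.4% in CD8 cells), with medians of 0.08 and 0.09. Ndufv1, which binds NADH and the flavin, measured 69.5 and 74.6 CPM in WT and 80.3 and 89.8 CPM in SDHA-KO CD4 cells (0.24, edgeR adjusted p = 0.0569), and 66.4 and 67.3 against 74.6 and 81.7 CPM in CD8 cells (0.22, adjusted p = 0.0314). Its partner Ndufv2 rose from 147 and 156 to 198 and 214 CPM in CD4 cells (0.44, SE 0.07, adjusted p = 0.000609) and from 126 and 125 to 156 and 167 CPM in CD8 cells (0.37, SE 0.07). Ndufv1 was the core subunit with the smallest change in CD4 cells, and its call in CD8 cells was lost without unstimulated WT replicate 1 (adjusted p = 0.0549) or 2 (0.0551), stimulated WT replicate 1 (0.164) or 2 (0.132), or stimulated SDHA-KO replicate 2 (0.244).

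Ndufs1, the largest core subunit, measured 35.6 and 35.3 CPM in WT and 42.2 and 45.8 CPM in SDHA-KO CD4 cells (0.31, adjusted p = 0.0124), and 40.0 and 40.3 against 46.6 and 46.9 CPM in CD8 cells (0.22, adjusted p = 0.0566). Ndufs3 rose from 99.5 and 101 to 117 and 128 CPM in CD4 cells (0.29, adjusted p = 0.0183) and from 96.4 and 81.4 to 114 and 129 CPM in CD8 cells (0.45, adjusted p = 0.00223). Both SDHA-KO libraries lay above both WT libraries for both subunits in both classes. They did so for 37.8% of all genes tested in CD4 and 38.8% in CD8 cells.

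Ndufs7, which carries the last iron-sulfur cluster before ubiquinone, rose from 132 and 136 to 179 and 191 CPM in CD4 cells (0.46, SE 0.07, adjusted p = 0.000329) and from 148 and 151 to 205 and 218 CPM in CD8 cells (0.50, SE 0.07, adjusted p = 0.000197). Ndufs8, another iron-sulfur subunit, rose from 95.6 and 106 to 126 and 136 CPM in CD4 cells (0.38, adjusted p = 0.012) and from 84.6 and 92.4 to 114 and 122 CPM in CD8 cells (0.42, adjusted p = 0.00101). In cells with percent.mt under 10, only Ndufs7 among the core subunits was called in both classes, at 0.19 in CD4 cells (adjusted p = 0.0494) and 0.28 in CD8 cells (adjusted p = 0.0142). The CD4 calls of Ndufs1 and Ndufs3 were lost without stimulated WT replicate 1 (adjusted p 0.0567 and 0.0932), without WT replicate 2 (0.0635 and 0.0664), or without SDHA-KO replicate 2 (0.0634 and 0.0783), and that of Ndufs8 without WT replicate 1 (0.0986).

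Among the accessory subunits of the matrix arm 4 of 9 rose in CD4 cells (background 22.7% higher) and 3 of 9 in CD8 cells (26.8%), with medians of 0.13 and 0.09, and Ndufv3 was the 1 that fell. Under the same limit none rose and 4 fell in CD4 cells (background 16% higher and 16.7% lower). In CD8 cells 1 rose and 4 fell (18.4% and 17%). Ndufa12, which takes the place of Ndufaf2 late in assembly, rose from 204 and 205 to 248 and 305 CPM in CD4 cells (0.43) and from 181 and 183 to 265 and 294 CPM in CD8 cells (0.62). Ndufa5 and Ndufs6 were the others that rose in both classes. In the membrane arm 16 of 21 rose in CD4 cells and 14 of 21 in CD8 cells, with medians of 0.47 and 0.36, and none fell. With percent.mt under 10, 7 rose and 3 fell in CD4 cells, and 4 rose and 3 fell in CD8 cells, against the same backgrounds under the limit. The difference between the arms was not tested.

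Ndufa11, a membrane-arm subunit at the contact with complex III in the supercomplex, rose from 114 and 123 to 193 and 218 CPM in CD4 cells (0.79, SE 0.08, adjusted p = 1.99e-05) and from 109.6 and 119 to 161 and 171 CPM in CD8 cells (0.53, SE 0.07). Ndufab1, the mitochondrial acyl carrier protein, which also serves fatty acid synthesis in the matrix, rose from 263 and 278 to 408 and 460.4 CPM in CD4 cells (0.68, SE 0.08) and from 239 and 241 to 367 and 399.9 CPM in CD8 cells (0.67, SE 0.07, adjusted p = 2.37e-05). Ndufs5, an accessory subunit on the intermembrane face, rose from 150.3 and 155 to 232 and 258 CPM in CD4 cells (0.68, SE 0.08). In each of these the SDHA-KO libraries lay above the WT libraries without overlap, as for 37.8% of all genes tested in CD4 and 38.8% in CD8 cells. Ndufa9, Ndufa7, Ndufa6, Ndufa2, Ndufc2, Ndufc1, Ndufb1-ps, Ndufa3, and Ndufb5 were called in neither class.

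The Ndufaf factors build and stabilise modules of complex I without staying in the finished enzyme. Ndufaf4, which works with Ndufaf3 on the early quinone module, rose from 33.7 and 29.6 to 44.3 and 55.4 CPM in CD4 cells (0.66, SE 0.11, adjusted p = 0.000608) and from 38.0 and 35.9 to 75.6 and 80.8 CPM in CD8 cells (1.08, SE 0.08, adjusted p = 1.95e-06). It was called in both classes at percent.mt under 10 too, at 0.58 (adjusted p = 0.0021) and 0.98 (adjusted p = 9.36e-06). Ndufaf3 rose from 13.2 and 14.1 to 23.9 and 26.8 CPM in CD4 cells (0.89, SE 0.10, adjusted p = 4.56e-05) and from 12.7 and 15.0 to 18.8 and 20.7 CPM in CD8 cells (0.50, SE 0.11, adjusted p = 0.0034). At percent.mt under 10 Ndufaf3 was called in CD4 cells (0.56, adjusted p = 0.00119) and not in CD8 cells (0.26, adjusted p = 0.0828).

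Ndufaf8, a partner of Ndufaf5, rose from 50.9 and 52.1 to 75.7 and 82.2 CPM in CD4 cells (0.62, SE 0.11) and from 40.6 and 42.1 to 66.1 and 69.4 CPM in CD8 cells (0.71, SE 0.09). Ndufaf1, of the complex that assembles the membrane arm, rose from 16.9 and 17.8 to 26.1 and 25.9 CPM in CD4 cells (0.58, SE 0.11) and from 16.0 and 15.2 to 23.5 and 24.2 CPM in CD8 cells (0.61, SE 0.10). Ndufaf2, a late-stage factor, rose from 58.3 and 55.6 to 68.8 and 75.8 CPM in CD4 cells (0.34, SE 0.07) and from 59.3 and 57.3 to 79.1 and 81.6 CPM in CD8 cells (0.46, SE 0.07). The libraries of the 2 genotypes did not overlap for these 3 factors in either class. Of all genes tested, 37.8% in CD4 and 38.8% in CD8 cells had both SDHA-KO libraries above both WT libraries. None of them was called in CD4 cells with percent.mt under 10, where Ndufaf8 was at 0.24 (adjusted p = 0.103), Ndufaf1 at 0.30 (0.0539), and Ndufaf2 at 0.14 (0.191). All 3 were called in CD8 cells under that limit, at 0.32 (adjusted p = 0.02), 0.30 (0.0441), and 0.28 (0.0205).

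Ndufaf5, which hydroxylates an arginine of Ndufs7, measured 13.8 and 13.4 against 15.7 and 18.4 CPM in CD4 cells (0.33, adjusted p = 0.0503) and 12.3 and 11.0 against 15.0 and 17.1 CPM in CD8 cells (0.46, adjusted p = 0.00617). Ndufaf6 measured 27.7 and 27.1 against 33.4 and 40.4 CPM in CD4 cells (0.43, adjusted p = 0.0188) and 27.3 and 27.9 against 35.3 and 41.8 CPM in CD8 cells (0.48, adjusted p = 0.00222). Ndufaf7, an arginine methyltransferase, was the factor called in neither class, at 21.8 and 22.7 against 21.1 and 23.4 CPM in CD4 cells (0.00, adjusted p = 0.992) and 22.1 and 22.0 against 23.6 and 23.6 CPM in CD8 cells (0.10, adjusted p = 0.418). Neither Ndufaf5 nor Ndufaf6 was called at percent.mt under 10, with Ndufaf5 at 0.11 (adjusted p = 0.524) and Ndufaf6 at 0.19 (0.265) in CD4 cells and at 0.33 (0.0516) and 0.20 (0.146) in CD8 cells. Ndufaf6 lost its CD4 call without stimulated WT replicate 1 (adjusted p = 0.0718), WT replicate 2 (0.0877), or SDHA-KO replicate 2 (0.0831). Ndufaf5 lost its CD8 call without WT replicate 2 (0.0687) or SDHA-KO replicate 2 (0.0607), and gained one in CD4 cells without unstimulated WT replicate 1 (0.0379) or 2 (0.0385) or stimulated SDHA-KO replicate 1 (0.0103).

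Of the genes with the prefix only, Ndufa4 rose from 470.1 and 480.4 to 595 and 645 CPM in CD4 cells (0.38, SE 0.07, adjusted p = 0.00128) and from 428 and 457 to 519.7 and 569 CPM in CD8 cells (0.30, SE 0.08, adjusted p = 0.00836). In CD8 cells that call was lost without stimulated WT replicate 1 (adjusted p = 0.0732) or SDHA-KO replicate 2 (0.0856). At percent.mt under 10 the differences were 0.07 and −0.02. Ndufa4l2 had 3 UMIs in all libraries, 2 in CD4 and 1 in CD8 cells, and was not tested. Among 12 assembly factors without the prefix, 4 rose and 1 fell in CD4 cells (background 43.2% called) and 5 rose and 1 fell in CD8 cells (50.4%), shares near the background. Dmac1, a factor of the distal membrane arm, rose in both (0.93 and 0.86), whereas Ecsit fell in CD4 cells (−0.35) and Timmdc1 in CD8 cells (−0.30).

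Restricting the comparison to cells with percent.mt under 10 removed most of the rises. In CD4 cells 9 structural subunits rose and 7 fell, with a median of 0.04 (background 32.8% called, 16% higher and 16.7% lower), and in CD8 cells 7 rose and 7 fell, with a median of 0.02 (35.4%, 18.4% higher and 17% lower). The log2 fold change was lower than in all cells for all 37 subunits and all 8 assembly factors in both classes. Of the 26 subunits that rose in CD4 cells, 9 were still called and 17 were not, and of the 23 in CD8 cells, 7 were still called and 16 were not. Those called higher in both classes were Ndufs7, Ndufa11, Ndufb9, Ndufb10, and Ndufab1, with Ndufaf4 among the assembly factors. Those called lower in both were Ndufv3, Ndufa2, Ndufa6, Ndufa7, Ndufa3, Ndufb1-ps, and Ndufc1.

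The subunits lower in these cells beside Ndufv3 had log2 fold changes of −0.24 to −0.44 in CD4 cells and −0.23 to −0.44 in CD8 cells. Ndufb1-ps measured 349.6 and 439 CPM in WT and 294 and 287 CPM in SDHA-KO CD4 cells with percent.mt under 10, and Ndufa7, an accessory subunit of the matrix arm, 327 and 364 against 267 and 281 CPM. The SDHA-KO libraries lay below the WT libraries in both, as for 34.3% of all genes tested in these CD4 cells. None of the 6 was called in all cells of either class.

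**Figure D2:**
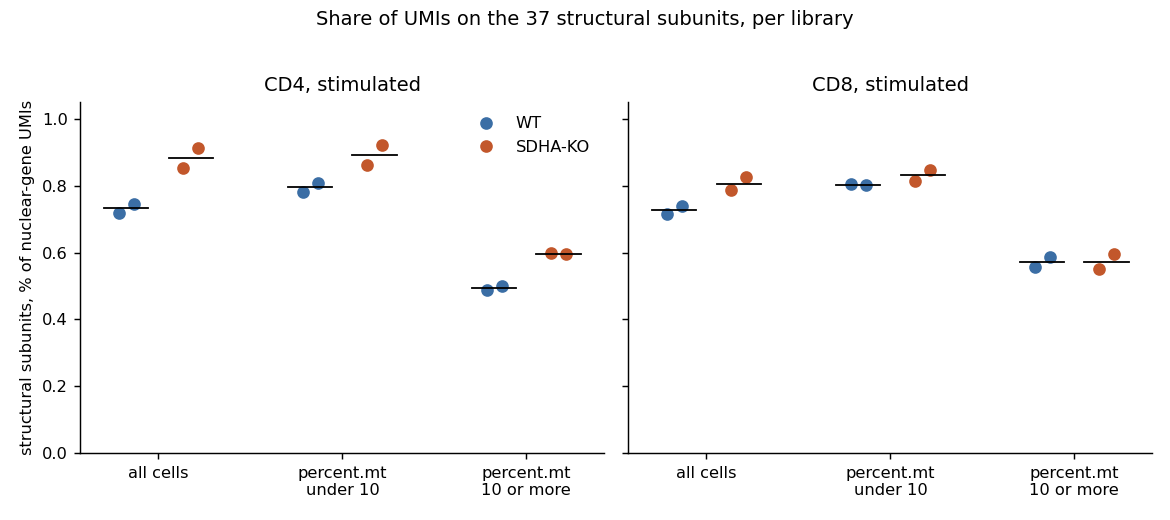
UMIs of the 37 structural subunits as a percentage of nuclear UMIs (y axis) in each stimulated library, 2 points per genotype, for all cells, cells with percent.mt under 10, and cells with percent.mt of 10 or more. The gap between the genotypes in CD4 cells is 0.719 and 0.745 against 0.851 and 0.912 in all cells and 0.782 and 0.808 against 0.860 and 0.920 under the limit, and the CD8 libraries overlap at 10 or more.

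Summed over the 37 subunits, structural transcripts made up 0.732% ± 0.0189 of nuclear UMIs in stimulated WT CD4 cells and 0.882% ± 0.0429 in SDHA-KO (SD, n = 2 each), and 0.727% ± 0.0157 against 0.806% ± 0.0259 in CD8 cells. In cells with percent.mt under 10 the values were 0.795% ± 0.0183 against 0.890% ± 0.0422 in CD4 cells and 0.803% ± 0.000262 against 0.831% ± 0.0242 in CD8 cells. The SDHA-KO libraries lay above the WT libraries in all 4 of these comparisons. With 2 against 2 libraries an exact permutation test, 2-sided, cannot go below p = 0.33, so these sums are given as a description. In UMIs per cell, which also carry cell size and capture, the order changed with the cells taken. CD4 cells held 196 and 208 structural UMIs in WT and 206 and 236 in SDHA-KO, but with percent.mt under 10 they held 427 and 439.5 against 231 and 258.

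**Figure D3:**
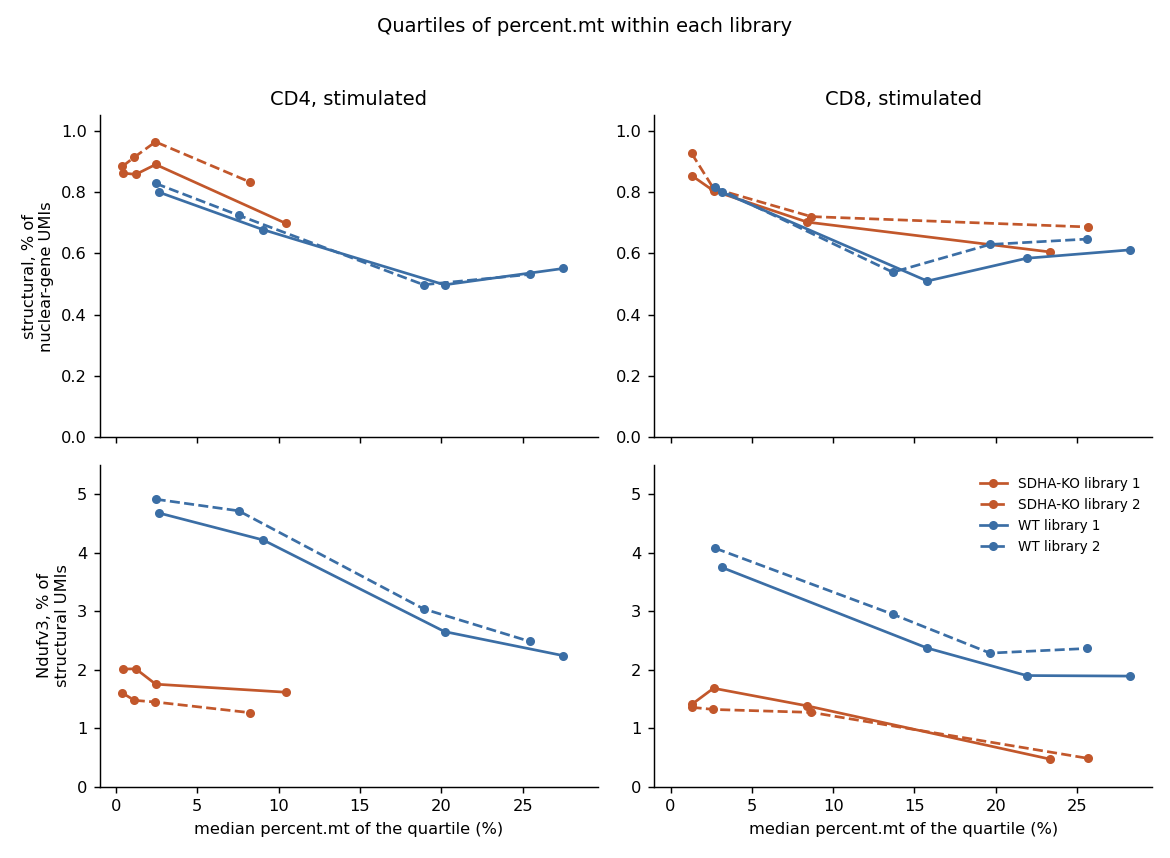
Structural subunit UMIs as a percentage of nuclear UMIs and Ndufv3 as a percentage of structural subunit UMIs (y axes) by quartile of percent.mt within each stimulated library (x axis), 1 line per library. The WT structural share falls from the lowest to the third quartile in CD4 cells and from the lowest to the second in CD8 cells, and Ndufv3 lies at 1.89% to 4.92% in WT and 0.475% to 2.02% in SDHA-KO.

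The structural share varied with percent.mt inside libraries of both genotypes. In WT CD4 replicate 1 it was 0.799% in the quartile of cells with the lowest percent.mt, then 0.677%, 0.497%, and 0.550% in the quartile with the highest. The mean share of the highest quartile over that of the lowest was 0.665 in WT CD4 cells and 0.779 in WT CD8 cells. In SDHA-KO CD8 cells the share went from 0.853% and 0.926% in the lowest quartile to 0.604% and 0.686% in the highest. In SDHA-KO CD4 cells it went from 0.862% and 0.884% to 0.698% and 0.833%, and was largest in the third quartile. In every quartile of both classes the Ndufv3 share of structural UMIs was lower in both SDHA-KO libraries than in both WT libraries. The quartiles were drawn within each library, so they are not matched on percent.mt between genotypes. The median percent.mt of the third CD4 quartile was 20.2 and 18.9 in WT and 2.43 and 2.42 in SDHA-KO.

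The 7 mt-Nd genes, the mitochondrially encoded subunits of the same enzyme, went the other way. All 7 fell in stimulated SDHA-KO cells of both classes (background 20.5% lower in CD4 and 23.5% in CD8 cells), with medians of −1.48 in CD4 and −0.93 in CD8 cells. mt-Nd4l had the largest fall in CD4 cells (−2.68) and mt-Nd6 in CD8 cells (−1.76), while mt-Nd1 fell by 0.57 and 0.44 on the log2 scale. At percent.mt under 10, 6 of 7 were lower in CD4 cells, where mt-Nd1 was at 0.18 (adjusted p = 0.118), and 5 of 7 in CD8 cells, where mt-Nd1 was higher, at 0.27 (adjusted p = 0.00422). The limit on percent.mt selects on the mt-Nd UMIs themselves, so these values describe the cells kept. The ratio of nuclear structural to mt-Nd UMIs was 0.479 ± 0.0472 in WT and 1.35 ± 0.0679 in SDHA-KO CD4 cells (SD, n = 2 each), and 0.345 ± 0.0572 against 0.700 ± 0.015 in CD8 cells. SDHA-KO over WT, it was 2.82 in CD4 and 2.03 in CD8 cells, and 1.35 and 1.06 at percent.mt under 10.

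Unstimulated cells showed no called difference in any nuclear complex I gene. None of the 37 structural subunits and none of the 8 assembly factors passed edgeR's test in CD4 cells (background 1.1%) or CD8 cells (background 0.947%), and DESeq2 called none either. At an unadjusted p under 0.05 there were 1 subunit and 2 assembly factors in CD4 cells and 2 subunits and 1 assembly factor in CD8 cells. The medians over the structural subunits were −0.02 and −0.07. Ndufv3 measured 156.5 and 164 CPM in WT and 165 and 156 CPM in SDHA-KO CD4 cells, and 146 and 157 against 156.5 and 150.1 CPM in CD8 cells. The genotypes overlapped in both classes.

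**Figure D4:**
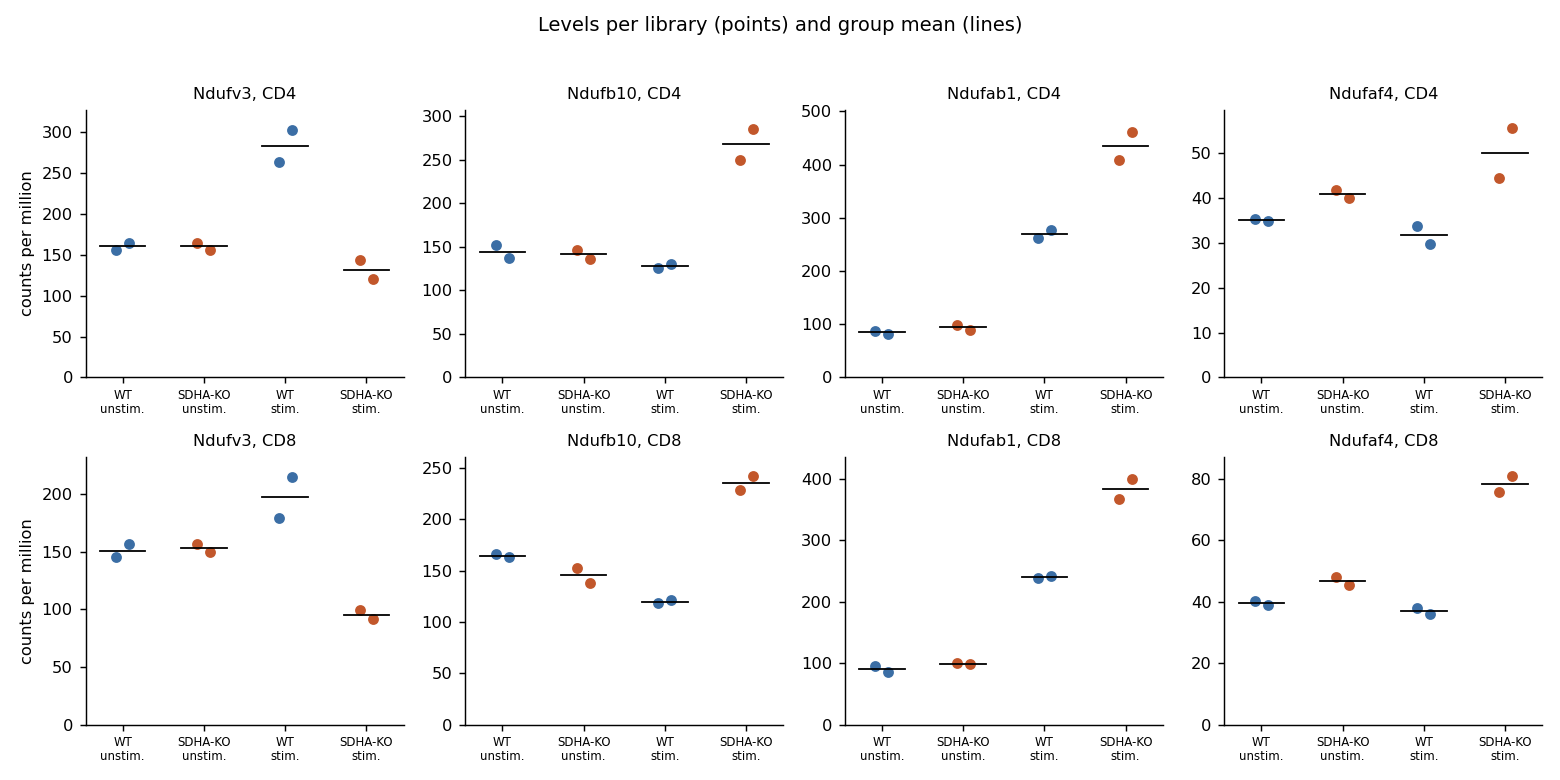
TMM-scaled CPM (y axis) of selected nuclear complex I genes in each of the 8 libraries, by group (x axis) and class, with 2 points per group. For Ndufv3 the stimulated WT points lie above the other groups, at 264 and 303 CPM in CD4 cells, and for Ndufb10 the stimulated SDHA-KO points do, at 250.3 and 285 CPM.

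Stimulation itself moved nuclear complex I genes in both genotypes. In WT CD4 cells 26 structural subunits rose and 5 fell (background 66.3%, 36.2% higher and 30.1% lower), with a median of 0.43, and 4 assembly factors rose and 2 fell. In SDHA-KO CD4 cells 30 rose and 4 fell (69.8%, 36.6% higher and 33.2% lower), with a median of 0.84, and 7 assembly factors rose and none fell. In WT CD8 cells 17 rose and 9 fell (65.7%, 35.5% higher and 30.3% lower) and in SDHA-KO CD8 cells 27 rose and 6 fell (68.2%, 37.2% higher and 30.9% lower), with medians of 0.18 and 0.61. The WT CD8 split changed with the setting. Without composition normalization, which moved the median of all genes from 0.088 to 0.570, 29 rose and 3 fell. The share of all genes called in that setting is not given here, so this count is not read further. At percent.mt under 10, 28 rose and 3 fell (background 67.7%, 36.1% higher and 31.6% lower).

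Ndufab1 had the largest rise in all 4 of these comparisons. It went from 87.1 and 82.4 to 263 and 278 CPM in WT CD4 cells (1.67, SE 0.09, edgeR adjusted p = 2.01e-08) and from 98.7 and 90.0 to 408 and 460.4 CPM in SDHA-KO CD4 cells (2.20, SE 0.09), with 1.40 and 1.95 in CD8 cells. Ndufb8, a membrane-arm subunit often used as a marker of assembled complex I, rose by 1.30 and 1.81 in WT and SDHA-KO CD4 cells and by 1.22 and 1.61 in CD8 cells. Ndufaf6 rose from 8.34 and 10.5 to 27.7 and 27.1 CPM in WT CD4 cells (1.54, SE 0.17), with 1.61 in SDHA-KO CD4 cells and 1.28 and 1.57 in WT and SDHA-KO CD8 cells. Stimulated and unstimulated libraries did not overlap for these 3 genes, and the share of all genes without such overlap is not given here. Ndufc2 and Ndufb6 were the other largest rises in WT CD4 cells (1.47 and 1.44), Ndufc2 and Ndufaf2 in WT CD8 cells (1.36 and 1.25), Ndufa12 and Ndufb6 in SDHA-KO CD4 cells (1.65 and 1.64), and Ndufaf2 and Ndufa12 in SDHA-KO CD8 cells (1.53 and 1.38).

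A smaller set went down with stimulation. Ndufa3, a small membrane-arm subunit, fell from 294 and 305 to 137 and 169.8 CPM in WT CD4 cells (−0.96, SE 0.10, edgeR adjusted p = 3.93e-06), with −1.23 in WT CD8 cells and −0.75 and −0.99 in SDHA-KO CD4 and CD8 cells. Ndufa6, of the matrix arm, fell from 245 and 224 to 137 and 158 CPM in WT CD4 cells (−0.67, SE 0.09), with −1.13 in WT CD8 cells and −0.51 and −1.04 in SDHA-KO cells. These 2 fell in both genotypes and classes. Ndufaf3 and Ndufaf8 fell in WT CD4 cells (−0.77 and −0.41) and in WT CD8 cells (−0.80 and −0.88), and so did Ndufa1 (−0.37 and −0.76). In WT CD4 cells the changes of Ndufaf8 and Ndufa1 were 0.01 (adjusted p = 0.918) and −0.02 (adjusted p = 0.849) at percent.mt under 10 and −0.19 (adjusted p = 0.144) and −0.15 (adjusted p = 0.188) without composition normalization. Ndufaf8 lost its call without unstimulated WT replicate 1 (adjusted p = 0.109), and Ndufa1 without unstimulated WT replicate 2 (0.0997) or stimulated WT replicate 1 (0.0689). Ndufa1 in WT CD8 cells was at −0.28 (adjusted p = 0.0638) and Ndufaf3 at −0.32 (adjusted p = 0.0509) without composition normalization.

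Ndufv3 rose on stimulation in WT cells, by 0.82 in CD4 cells (SE 0.10, edgeR adjusted p = 2.1e-05) and by 0.38 in CD8 cells (SE 0.10, adjusted p = 0.0042). In SDHA-KO it fell in CD8 cells (−0.68, SE 0.10, adjusted p = 8.69e-05) and in CD4 cells (−0.28, SE 0.10, adjusted p = 0.0229), where the call was not kept at percent.mt under 10 (−0.22, adjusted p = 0.0584) or without composition normalization (−0.06, adjusted p = 0.585). It was also lost in turn without SDHA-KO stimulated replicate 2 (0.2), SDHA-KO unstimulated replicate 1 (0.146) or 2 (0.0594), or WT unstimulated replicate 1 (0.0554) or 2 (0.0543). Ndufb10 was at −0.17 in WT CD4 cells (adjusted p = 0.11), fell in WT CD8 cells (−0.46, adjusted p = 0.00027), and rose in SDHA-KO cells (0.92 and 0.69). Ndufa2, of the matrix arm, fell in SDHA-KO CD8 cells (−0.52) and in CD4 cells (−0.23, adjusted p = 0.0196), and the CD4 call was lost without composition normalization (−0.00, adjusted p = 0.957) and without WT unstimulated replicate 1 (0.056) or 2 (0.0542), SDHA-KO unstimulated replicate 1 (0.198), or SDHA-KO stimulated replicate 1 (0.075) or 2 (0.0501). Ndufa1 fell in SDHA-KO CD8 cells (−0.55, adjusted p = 0.00343), but not past the threshold without SDHA-KO unstimulated replicate 1 (0.0786). Ndufa4 rose in WT and SDHA-KO cells, by 0.62 and 1.03 in CD4 and 0.29 and 0.56 in CD8 cells, and its WT CD8 call was lost without WT unstimulated replicate 2 (0.0941).

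Whether the genotypes differed by more after stimulation than before it was tested as an interaction in the same fit. In CD4 cells it was higher after stimulation for 16 structural subunits and lower for 1 (background 21.4%, 10.9% higher and 10.5% lower), with a median of 0.34, and in CD8 cells higher for 17 and lower for 1 (23.8%, 13.5% higher and 10.2% lower), with a median of 0.33. Of the assembly factors 2 were higher in CD4 and 4 in CD8 cells. At percent.mt under 10, 2 subunits were higher and 1 lower in CD4 cells (background 14.2%, 6.21% higher and 8.02% lower) and 1 higher and 1 lower in CD8 cells (11.1%, 5.1% higher and 5.99% lower). The subunit lower in each of these 4 counts was Ndufv3, at −1.11 (SE 0.14, edgeR adjusted p = 0.000425) in CD4 and −1.07 (SE 0.14, adjusted p = 0.000533) in CD8 cells, and −1.51 and −1.49 at percent.mt under 10. Ndufb10 was at 1.09 (SE 0.12) and 1.15 (SE 0.11), with 0.71 in each class at percent.mt under 10. Ndufaf3, which fell on stimulation in WT but not in SDHA-KO, was at 1.16 (SE 0.15, adjusted p = 0.000579) in CD4 and 0.92 (SE 0.20, adjusted p = 0.0077) in CD8 cells, where the call was lost without unstimulated WT replicate 2 (0.0525) or SDHA-KO replicate 2 (0.0536).

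The number of subunits called in that test moved with single libraries, both unstimulated and stimulated. It was 17 in CD4 cells and 11 without unstimulated WT replicate 1, and 18 in CD8 cells, where it was 8 without unstimulated WT replicate 1, 9 without unstimulated WT replicate 2, 10 without unstimulated SDHA-KO replicate 2, 10 without stimulated SDHA-KO replicate 2, and 11 without stimulated WT replicate 1. In stimulated CD4 cells the 27 subunits called between genotypes became 18 without WT replicate 1, of which 17 rose and 1 fell.

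CD8 and CD4 cells were compared inside the stimulated libraries. In WT, 3 structural subunits were higher in CD8 cells and 14 lower (background 23.5%, 11% higher and 12.5% lower). Ndufv3 had the largest difference (−0.47, SE 0.05, edgeR adjusted p = 0.000551), followed by Ndufa6 (−0.35), Ndufb1-ps (−0.30), Ndufa3 (−0.27), and Ndufa7 (−0.27). Ndufs1, Ndufs7, and Ndufa13 were higher (0.24, 0.21, and 0.21), and so was the assembly factor Ndufaf4 (0.28). The count of 17 became 4 without stimulated WT replicate 1 and 10 without WT replicate 2, and in each case the 4 higher calls were lost (adjusted p 0.0651 to 0.217). Ndufa7 lost its call without WT replicate 1 (0.0536).

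The SDHA-KO effect itself differed between the classes for few members (background 22.4%, 11.9% higher and 10.4% lower). It was lower in CD8 than in CD4 cells for Ndufa13 (−0.39, SE 0.06, adjusted p = 0.00361) and Ndufa11 (−0.27, SE 0.06, adjusted p = 0.0207) and, among assembly factors, for Ndufaf3 (−0.40, SE 0.10, adjusted p = 0.0297), and higher for Ndufaf4 (0.42, SE 0.10, adjusted p = 0.0209). In the strict class, which leaves out cells with a Trdc UMI, none of the 4 was called (background 10.4%, 5.32% higher and 5.09% lower). There Ndufa13 was at −0.15 (adjusted p = 0.204), Ndufa11 at −0.15 (0.264), Ndufaf3 at −0.04 (0.908), and Ndufaf4 at 0.33 (0.145). The calls of Ndufa11 and Ndufaf3 were lost without WT replicate 1 (adjusted p 0.096 and 0.0516), WT replicate 2 (0.105 and 0.18), or SDHA-KO replicate 2 (0.0737 and 0.0885), and that of Ndufaf4 without WT replicate 1 (0.12) or SDHA-KO replicate 1 (0.0697). Within the strict classes the genotype comparison called 25 subunits higher and 1 lower in CD4 cells (background 41%, 21.2% higher and 19.8% lower) and 28 higher and 1 lower in CD8 cells (49.5%, 25% higher and 24.4% lower).

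**Figure D5:**
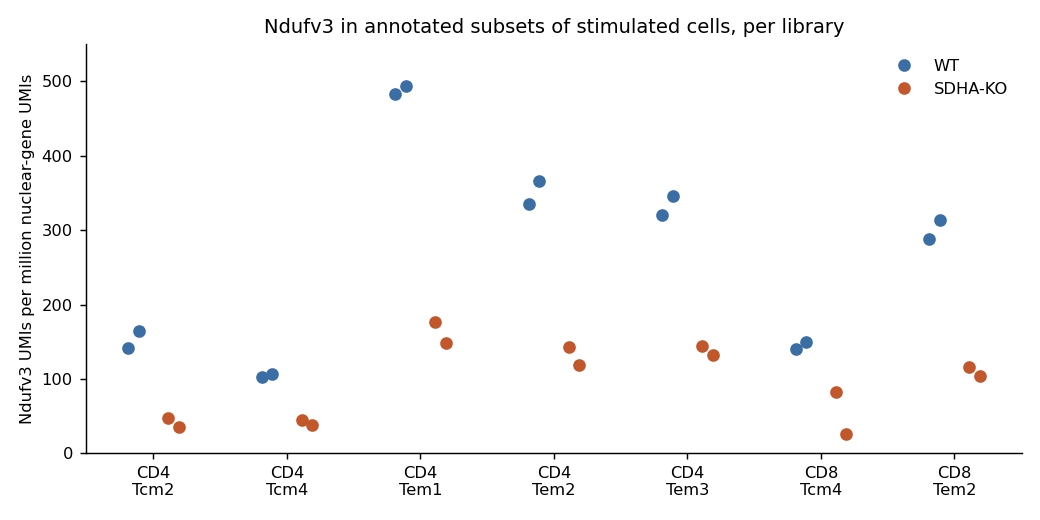
Ndufv3 as CPM of nuclear UMIs (y axis) in each stimulated library for the annotated subsets with at least 50 cells in all 4 libraries (x axis), 2 points per genotype. Both SDHA-KO points lie below both WT points in 5 of 5 CD4 subsets and 2 of 2 CD8 subsets.

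The authors' annotation also divides the cells into subsets named as central memory (Tcm) and effector memory (Tem), and 5 CD4 and 2 CD8 subsets held at least 50 cells in every stimulated library. Ndufv3 was lower in SDHA-KO in all of them. In CD4 Tem1 cells it gave 483 to 494 CPM of nuclear UMIs in WT and 148 to 176 in SDHA-KO, and in CD4 Tcm2 cells 142 to 165 against 35.5 to 47.1. In CD8 Tem2 cells it was 288 to 314 in WT against 104 to 117 in SDHA-KO. The structural share of nuclear UMIs was higher in SDHA-KO in 5 of 5 CD4 subsets, with ratios of 1.07 to 1.24, and in neither of the 2 CD8 subsets, where Tem2 had a ratio of 0.967 and Tcm4 overlapped. In structural UMIs per cell, 4 of the 5 CD4 subsets were lower in SDHA-KO and 1 overlapped. Subset names were set by the authors' clusters, so cells of 1 name need not match between genotypes.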

How the data were processed

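UMI counts per gene and cell were deposited by the authors for all 8 libraries, after bcl2fastq and Cell Ranger (versions not given in the sources used here; build mm10 per the labels), merging in Seurat, and removal of cells with very many genes and of clusters without CD3 transcripts. The deposited cell table gives percent.mt as a percentage of UMIs on mitochondrially encoded genes, a log10 ratio of Cd4 to Cd8a UMIs, and the authors' classes and subsets. It was checked against the matrix. How reads shared with processed copies of Nduf genes were counted was not given in the sources used here.

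UMIs were summed per library and class, because cells of 1 library are not replicates. CD4 sums held 6776027 to 34087903 UMIs. Genes were kept by filterByExpr (minimum 10, total 15), scaled with TMM, and tested with glmQLFit and glmQLFTest of edgeR 4.0.16 in R 4.3.3 over 4 groups with 4 residual degrees of freedom, and adjusted (Benjamini-Hochberg) over all genes tested. Adjusted p under 0.05 was called. Printed SEs are those of log2 fold changes. The spread between replicates was 8.73% in CD4 and 8.24% in CD8 sums. For CD8 against CD4 sums of the 4 stimulated libraries, library was a blocking term. The fit was tested on simulated data. Values per cell used Python 3.11.15, numpy 2.4.6, and pandas 2.3.3, and plots matplotlib 3.10.9. Alternatives included other scalings, DESeq2 1.42.0, thinning, and leaving out each library.

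Members and lists were chosen with earlier results of these data known. The rule for named genes took the core subunits and Ndufaf factors, up to 5 called members with the largest rise and fall per comparison, Ndufa4, and Ndufa4l2. The values of 1 member are not reported here, but it is included in the counts. Other members are examples of their group. The chi-square per degree of freedom between replicates was 1.54 to 13.6, above counting error. Doublets were not called again.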

Additional observations from a re-analysis of the deposited data

Results flagged for a closer look

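The genotypes differed by more or less after stimulation than before it, by edgeR's interaction test, for 17 structural subunits in CD4 cells (background 21.4%) and 18 in CD8 cells (23.8%), and at percent.mt under 10 for 3 and 2. In CD4 cells the largest were Ndufaf3 at 1.16, Ndufb10 at 1.09, Ndufa11 at 0.76, Ndufs5 at 0.64, Ndufb3 at 0.63, and Ndufv3 at −1.11 on the log2 scale. In CD8 cells they were Ndufb10 at 1.15, Ndufaf3 at 0.92, Ndufaf4 at 0.84, Ndufaf8 at 0.79, Ndufaf1 at 0.76, and Ndufv3 at −1.07. At percent.mt under 10 the values of Ndufs5 and Ndufb3 in CD4 cells were 0.27 and 0.30 and those of Ndufaf8 and Ndufaf1 in CD8 cells 0.39 and 0.44, and none of these 4 was called. The call of Ndufaf1 in CD8 cells was lost without unstimulated WT replicate 2 (adjusted p = 0.166), unstimulated SDHA-KO replicate 1 (0.0793), or stimulated WT replicate 2 (0.0514), and by DESeq2 (0.0804). Percent.mt, UMIs per cell, and the share of γδ cells differed between the genotypes after stimulation, and that of γδ cells also before it. Unstimulated median UMIs per cell were 7055 and 7446 in WT and 8626.5 and 8186 in SDHA-KO CD4 cells. In CD8 cells they were 8645 and 9425 against 10446 and 10166. Median percent.mt was 3.96 and 3.88 against 3.32 and 3.36 in unstimulated CD4 cells, and the genotypes overlapped in CD8 cells. The part of percent.mt, UMIs per cell, and γδ cells in the differences was not tested.

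The SDHA-KO effect differed between CD8 and CD4 cells for 2 structural subunits, Ndufa13 at −0.39 and Ndufa11 at −0.27 (background 22.4%). It also differed for 2 assembly factors, Ndufaf4 at 0.42 and Ndufaf3 at −0.40. The CD8 class of stimulated SDHA-KO held Trdc UMIs in 59.1% and 56.1% of its cells. In the strict class, with 169 and 147 SDHA-KO CD8 cells, none of the 4 was called (background 10.4%). There Ndufa13 was at −0.15, Ndufa11 at −0.15, Ndufaf3 at −0.04, and Ndufaf4 at 0.33. Whether γδ cells or the smaller number of cells had a part in this was not tested.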

How the results depend on the processing

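Several settings moved the counts of structural subunits. Between genotypes in stimulated CD4 and CD8 cells, 43.2% and 50.4% of all genes were called, and 32.8% and 35.4% at percent.mt under 10. For the interaction with state the share was 21.4% and 23.8%, and 14.2% and 11.1% under the limit. It was 23.5% for CD8 against CD4 in WT and 22.4% for the interaction with class (10.4% in the strict class). The share is not given here for other settings or for fits without 1 library, and those counts are not read further. Against 27 called between genotypes in stimulated CD4 cells (26 higher, 1 lower), 16 were called at percent.mt under 10 (9 higher, 7 lower), 12 in the strict class with that limit, chosen after seeing the data (5 higher, 7 lower), and 5 in the Tcm2 subset alone (1 higher, 4 lower). Against 24 in CD8 cells (23 higher, 1 lower), the same settings called 14 (7 higher, 7 lower), 12 (9 higher, 3 lower), and, in Tcm4, 0. Under the limit, without and with the strict class, the interaction of genotype with state called 3 and 2 subunits for CD4 and 2 and 2 for CD8 cells, and the CD8 count was 9 without composition normalization. CD8 against CD4 cells in stimulated WT called 8 with thinned libraries, 7 under the limit, 10 in the strict class, 7 with both, and 3 with no library block. The interaction of genotype with class called 6 without composition normalization, 1 each with thinned libraries, the strict class, DESeq2, and no library block, and 0 in the strict class under the limit. The ratio of nuclear to mt-Nd UMIs, SDHA-KO over WT, was 1.35 in CD4 and 1.06 in CD8 cells under the limit. With all UMIs as the total, the structural share of the highest over the lowest percent.mt quartile was 0.496 and 0.581 in WT. In UMIs per cell, 0 CD4 subsets had both SDHA-KO libraries above WT.

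Directions turned for Ndufs3 in CD4 cells (−0.047 under the limit, −0.076 with the strict class as well, −0.29 in Tcm2), Ndufs7 (−0.20 in Tcm2), Ndufs8 (−0.027 in the strict class under the limit), and Ndufaf4 (−0.13 in Tcm2). In CD8 cells they turned for Ndufv1 (−0.17 under the limit, −0.069 with the strict class as well), Ndufa4 (−0.021 under the limit), and, in Tcm4, Ndufaf3 (−0.14), Ndufaf5 (−0.66), and Ndufaf6 (−0.055). The fall of Ndufaf8 on stimulation of WT CD4 cells became 0.014 under the limit. The cause was not tested.

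Leaving out 1 library at a time gave 18 to 28 and 20 to 24 subunits called between genotypes in stimulated CD4 and CD8 cells, 11 to 23 and 8 to 19 for the difference between states, 4 to 17 for CD8 against CD4 in WT, and 1 to 2 for the difference between classes. Stimulation called 26 to 33 and 22 to 27 in WT and 31 to 34 and 30 to 33 in SDHA-KO, and unstimulated cells 0. The replicate numbers do not pair the libraries (correlations −0.082 to 0.060), and the replicate block gave 26 and 23 subunits in stimulated CD4 and CD8 cells and changed none of the 100 calls of named members. With libraries thinned to the smallest total, Ndufs1 in CD4 cells was at 0.19 (adjusted p = 0.19) and Ndufaf5 in CD8 cells at 0.43 (0.0718), both past the threshold at full depth.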

Other observations

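Before stimulation, where no nuclear complex I gene was called, the mitochondrially encoded subunits of the enzyme differed between genotypes. In CD4 and in CD8 cells 6 of the 7 mt-Nd genes were called (background 1.1% and 0.947%), 5 lower and 1 higher in SDHA-KO, with medians of −0.61 and −0.46 on the log2 scale. mt-Nd4, at −0.82 (SE 0.07) in CD4 and −0.61 (SE 0.09) in CD8 cells, was among those that fell. mt-Nd6, the mt-Nd gene read from the other strand of mitochondrial DNA, was the 1 that rose, by 1.21 (SE 0.09, edgeR adjusted p = 8.55e-05) in CD4 and 0.93 (SE 0.15, adjusted p = 0.0152) in CD8 cells. After stimulation mt-Nd6 was lower in SDHA-KO in both classes, at −1.48 and −1.76. The same 6 of 7 count, 5 lower and 1 higher, was found in cells with percent.mt under 10 and in the strict class. The share of all genes called is not given here for either setting. The limit kept 1114 of 1116 and 1314 of 1315 unstimulated SDHA-KO CD4 cells and all other unstimulated cells, so its count is not a separate result.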
